A study of Mus musculus with 8 samples.

Results

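The genes described here are 35 mouse genes of glutathione and thioredoxin metabolism, the peroxiredoxins, the superoxide dismutases and catalase, and Nrf2 with some of its targets. They were listed by symbol and not by their values, and all 35 were found among the 23469 genes of the deposited table. Of these, 31 averaged 1 TPM or more and were tested, and 4 (Nqo1, Gsta4, Mgst2 and Slc7a11) lay under that level. The study compared 4 Smart-seq2 libraries of AeEMs, the tdTomato-negative ascites macrophages taken as embryonic, with 4 libraries of AeMMs, the tdTomato-positive ascites macrophages taken as monocyte-derived. All libraries came from female Ms4a3Cre-RosaTdT mice on a C57BL/6 background that had been given ID8 cells, an ovarian epithelial tumour line of the mouse, into the peritoneum at 4 to 5 weeks of age, and ascites was taken 65 days later. There was thus no library of macrophages from mice without a tumour. In these mice Cre is driven by Ms4a3, a gene of granulocyte-monocyte progenitors, so a monocyte-derived cell in which Cre had not acted would have been sorted with the AeEMs. Live CD45+ CD11b+ F4/80+ cells without Ly6G, Siglec F and Ly6C were sorted. The titles number the libraries as biological replicates 1 to 4 in each group, and the study's account gives 4 mice and 4 runs for the 8 libraries, without saying that equal numbers share a mouse.

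Macrophages make superoxide and hydrogen peroxide when they take up particles, and they hold enzymes that remove both. Superoxide dismutases turn superoxide into hydrogen peroxide, which catalase, the glutathione peroxidases and the peroxiredoxins then reduce. Glutathione peroxidases draw their electrons from glutathione and most peroxiredoxins draw them from thioredoxin, and NADPH restores both carriers through their reductases. Nrf2, the transcription factor encoded by Nfe2l2, is held and marked for degradation by Keap1 until oxidants modify Keap1, and it then binds antioxidant response elements in the promoters of many of these genes.

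Values are log2(TPM + 1) as deposited, TPM being a transcript abundance scaled to gene length and to the library. The fold change is AeEM minus AeMM on that log2 scale, which understates the change of genes at a few TPM. Groups are given as mean ± SD over n = 4 libraries each. The 2 groups were compared with limma, unpaired, over the 8801 genes that averaged 1 TPM or more, with a threshold of 0.05 for the Benjamini-Hochberg adjusted p. In this fit, 110 genes (1.25%) were higher in AeEMs and 102 (1.16%) were lower. An adjustment made before deposit had brought the mean of a gene to almost the same value in 3 sets of libraries, namely the pair numbered 1, the pair numbered 2, and the libraries numbered 3 and 4. The unpaired fit does not count what the adjustment took out, so its p-values may be too small. A limma fit with a term for the 3 sets, called the set fit, is therefore given beside it. In the set fit, 9 genes (0.102%) were higher in AeEMs and 5 (0.0568%) were lower. The libraries were alike in the number of genes at 1 TPM or more (8624 to 8741 in AeEMs and 8498 to 8753 in AeMMs) and in the share of TPM from mitochondrially encoded genes (9.49% to 10.5% in AeEMs and 9.86% to 11.03% in AeMMs). The depth is unknown, since no read counts were used.

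Markers of macrophages, among them Lyz2 and the C1q genes, summed to 91919 to 100238 TPM in AeEMs and 92052 to 105134 TPM in AeMMs, with 10 of 10 at 1 TPM or more. Most of each sum was Lyz2 (means of 68550 TPM in AeEMs and 73057 TPM in AeMMs). Without overlap, Csf1r, Mertk and Adgre1 were below in AeEMs (fold changes -0.28, -0.26 and -0.16) and C1qa and Cd68 were above (0.40 and 0.13). Of the 10, 0 passed in either direction. Those of large peritoneal macrophages summed to 2730 to 3126 TPM in AeEMs and 2688 to 3391 TPM in AeMMs, mostly from Fcna, with 6 of 8 at 1 TPM or more. Of that list, Prg4, Timd4 and Alox15 were above without overlap in AeEMs. Selp was too, but it averaged 0.46 TPM in AeEMs and 0.08 TPM in AeMMs and was not tested. Of the genes tested 0 passed, and Gata6, which defines these cells, averaged under 1 TPM in both groups. Monocyte markers summed to 214 to 329 TPM in AeEMs and 195 to 255 TPM in AeMMs, with 6 of 7 at 1 TPM or more. Of these, Ly6c2 and Chil3 were lower in AeEMs without overlap (fold changes -1.55 and -2.16, limma adjusted p = 0.0478 and 0.0434, and 0.251 and 0.203 in the set fit). Summed markers of dendritic cells were at 44.9 to 107 TPM in AeEMs and 6.5 to 13.8 TPM in AeMMs, carried mainly by Cd209a. Of the 8, 3 were at a mean of 1 TPM or more, and Flt3 and Zbtb46 were under it. Cd209a was higher in AeEMs (fold change 3.65, limma adjusted p = 0.0029, and 0.0326 in the set fit). Itgax was higher too (1.05, limma adjusted p = 0.0109, and 0.115 in the set fit), and Ccr7 did not pass. Neutrophil markers summed to 44.1 to 51.7 TPM in AeEMs and 81.8 to 96.4 TPM in AeMMs. Of the 12, 3 were at 1 TPM or more (Prtn3, S100a8 and Csf3r), while S100a9, Mpo, Elane and Camp were under it. Prtn3 and S100a8 were lower in AeEMs (fold changes -0.96 and -1.03, limma adjusted p = 0.0039 and 0.0044, and 0.0605 for both in the set fit). Csf3r did not pass. T and NK cell markers summed to 0.7 to 4.3 TPM in AeEMs and 7.8 to 18.9 TPM in AeMMs, with Nkg7 alone of 10 at 1 TPM or more. Nkg7 was lower in AeEMs (fold change -2.41, limma adjusted p = 0.0113, and 0.0712 in the set fit). Haemoglobin genes and other markers of red blood cells, whose precursors also make much Prdx2 and Cat, summed to 7665 to 12746 TPM in AeEMs and 4210 to 10477 TPM in AeMMs, with 5 of 10 at 1 TPM or more. B and plasma cell markers summed to 259 to 405 TPM in AeEMs and 248 to 469 TPM in AeMMs, with 7 of 8 at 1 TPM or more. The groups thus did not overlap in the sums of the dendritic cell, neutrophil and T and NK cell lists. They overlapped in those of red blood cells, B and plasma cells, monocytes and large peritoneal macrophages. The part of any of these cells in the results that follow was not tested. In sorted bulk samples, fewer cells of a kind and less RNA per cell cannot be told apart.

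Of the 31 redox genes tested, 4 were lower in AeEMs than in AeMMs in the unpaired fit, and 0 were higher. The 4 were Sod1, the cytosolic copper and zinc superoxide dismutase, Prdx5, a peroxiredoxin of mitochondria, peroxisomes and cytosol, Msrb1, a selenoprotein that repairs oxidised methionine, and Txn1, cytosolic thioredoxin. Their levels in AeEMs were 0.74 to 0.84 of those in AeMMs (on the TPM + 1 scale), and all 4 AeEM libraries lay below all 4 AeMM libraries in each of these genes. They stand against 1.16% of all genes tested that were lower and 1.25% that were higher. In the set fit, 0 of the 31 passed in either direction, against 0.0568% of all genes lower and 0.102% higher, and 5 of the 31 had an unadjusted limma p under 0.05 in that fit, against 848 of 8801 genes. When libraries of equal number were treated as pairs (a replicate block), 0 of the 31 passed as well. In the unpaired fit 9 of the 31 had an unadjusted limma p under 0.05, of which 2 were higher (Gpx1 and Gsto1) and 7 lower, against 1587 of 8801 genes. The groups did not overlap in 5 of the 31, in all of which AeEMs were below, and AeEMs were above without overlap in 0. Among all genes tested, 6.53% had AeEMs below and 5.72% had AeEMs above without overlap. The median fold change of the 31 was -0.06, beside -0.01 over all genes tested, with 12 positive and 19 negative values between -0.43 and 0.27.

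The members covered a wide range of levels. Gpx1, the cytosolic glutathione peroxidase, averaged 11651 TPM in AeEMs and 10216 TPM in AeMMs and ranked 13 among all genes of the table. Prdx1, a cytosolic peroxiredoxin, averaged 1598 TPM in AeEMs and 1782 TPM in AeMMs, and Prdx5 averaged 1037 TPM in AeEMs and 1315 TPM in AeMMs. These 3 were over 1000 TPM, and 10 more lay between 100 and 1000 TPM, 15 between 10 and 100 TPM, 3 between 1 and 10 TPM and 4 under 1 TPM. Together the 35 genes held 1.62% to 1.94% of the TPM in AeEMs and 1.68% to 1.72% in AeMMs, and the highest and the lowest share were both in AeEM libraries (replicates 3 and 4). Most of this share was Gpx1 in every library, with 13252 of 18904 TPM in AeEM replicate 3 and 10289 of 15667 TPM in AeEM replicate 4.

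**Figure D1:**
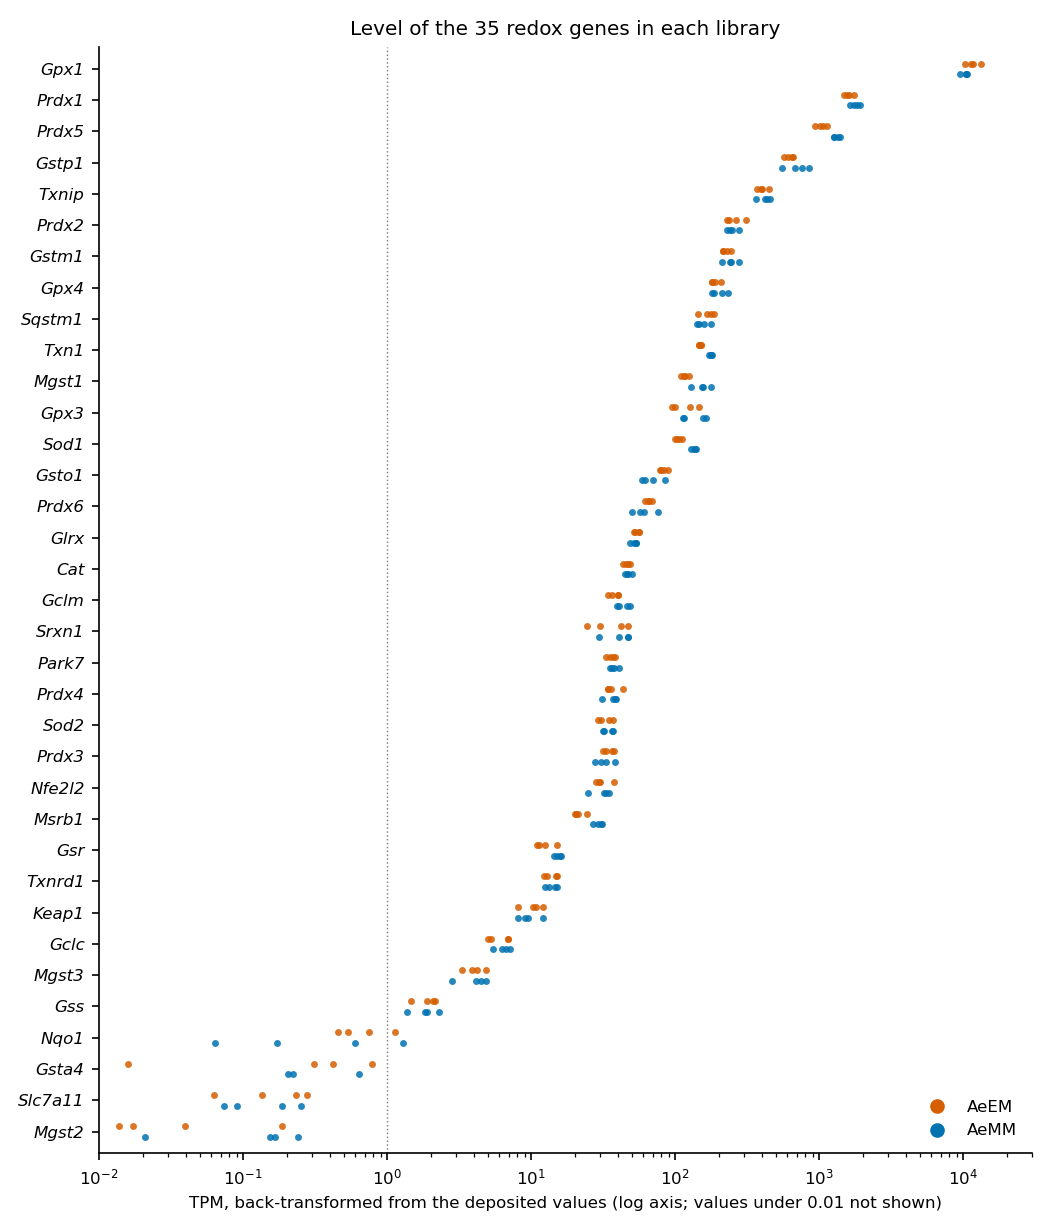
Level of each of the 35 redox genes in the 8 libraries, in TPM on a log axis, with a point per library, AeEMs above AeMMs in each row, and a dotted line at 1 TPM. Gpx1 stands highest, at a mean of 11651 TPM in AeEMs and 10216 TPM in AeMMs, and Nqo1, Gsta4, Slc7a11 and Mgst2 lie around or under 1 TPM.

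Nrf2 and its controls did not pass the test. Nfe2l2 was at 5.01 ± 0.18 in AeEMs and 4.998 ± 0.21 in AeMMs, a fold change of 0.01 (SE 0.13, 95% confidence interval -0.28 to 0.30, limma adjusted p = 0.984). Keap1, the adaptor that presents Nrf2 for degradation, was at 3.49 ± 0.22 in AeEMs and 3.41 ± 0.22 in AeMMs. In both genes the libraries of the groups were interleaved. Sqstm1, the autophagy receptor p62, which can draw Keap1 away from Nrf2, was at 7.40 ± 0.15 in AeEMs and 7.29 ± 0.14 in AeMMs. Park7, or DJ-1, an oxidant-responsive protein that has been linked to Nrf2 stability, was at 5.21 ± 0.09 in AeEMs and 5.27 ± 0.09 in AeMMs. Nqo1, a quinone reductase and a widely used readout of Nrf2, was at 0.62, 1.09, 0.81 and 0.54 in the AeEM libraries and at 0.68, 0.23, 1.20 and 0.09 in the AeMM libraries. These Nqo1 values overlap fully and were too low to test. Fold changes of the 4 tested genes of this group lay between -0.06 and 0.11, with a median of 0.04.

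The core of the antioxidant response element, TGACNNNGC on either strand, was searched in the RefSeq promoters of GRCm38.p6, 250 bases before to 50 bases after each transcript start. A promoter was matched for 31 of the 35 genes, all but Prdx6, Gsta4, Gclc and Gsr. Of the 31, 7 (22.6%) held the core. Of all 27025 genes with a promoter, tested here or not, 3781 (14.0%) held it. The stretches that hold it are shown with 10 bases on each side, 5′ to 3′ on the strand of the gene, with the core in capitals, because Nrf2 is known to bind such elements. A match is a description of the letters and not a site in use. Elements outside this window were not searched, so a gene without a match here may hold one elsewhere.
Nfe2l2: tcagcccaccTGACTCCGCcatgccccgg
Gclm: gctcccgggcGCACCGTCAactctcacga
Mgst1: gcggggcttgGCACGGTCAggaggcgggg
Prdx1: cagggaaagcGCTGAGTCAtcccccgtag
Txnrd1: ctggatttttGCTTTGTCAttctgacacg
Srxn1: gcagtgggcaGCTAGGTCAgagtgagaca
Sod1: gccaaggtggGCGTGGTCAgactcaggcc
Counted from the transcript start, the first base of the core lies at -240 in Nfe2l2, -134 in Gclm, -56 in Mgst1, -133 in Prdx1, -92 in Txnrd1, 29 in Srxn1 and -56 in Sod1. The stretches are chr2:75704885-75704913 (- strand) for Nfe2l2, chr3:122245413-122245441 for Gclm, chr6:138140461-138140489 for Mgst1, chr4:116685456-116685484 for Prdx1, chr10:82859104-82859132 for Txnrd1, chr2:152105542-152105570 for Srxn1 and chr16:90220696-90220724 for Sod1 (these 6 on the + strand). In Nfe2l2 the core reads on the strand of the gene and in the other 6 on the opposite strand. In Prdx1 the core overlaps an AP-1 site, TGANTCA. Of these 7 genes only Sod1 passed the unpaired test, and Nfe2l2, Txnrd1, Gclm, Prdx1, Srxn1 and Mgst1 did not.

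Genes of glutathione synthesis and recycling did not pass either, 0 of 4 tested. Gsr, the reductase that restores glutathione with NADPH, was at 3.61, 3.76, 3.999 and 3.58 in the AeEM libraries and at 4.09, 4.02, 3.94 and 4.06 in the AeMM libraries. AeEM replicate 3 lay above AeMM replicate 3 and the other AeEM libraries lay below all AeMM libraries. The fold change of Gsr was -0.29 (SE 0.11, limma adjusted p = 0.201). Gclm, the modifier subunit of glutamate-cysteine ligase, which makes the first bond of glutathione, was at 5.27 ± 0.11 in AeEMs and 5.48 ± 0.14 in AeMMs (fold change -0.21, SE 0.09, limma adjusted p = 0.285). Its catalytic partner Gclc was at 2.80 ± 0.21 in AeEMs and 2.88 ± 0.15 in AeMMs. Gss, glutathione synthetase, which adds glycine, had a fold change of 0.02 (95% confidence interval -0.29 to 0.34). Gclc and Gss thus lay far under Gclm in TPM, at 6.00 and 1.89 TPM in AeEMs beside 37.7 TPM, and at 6.38 and 1.85 TPM in AeMMs beside 43.7 TPM. Slc7a11, the cystine carrier that feeds glutathione synthesis and a target of Nrf2, was between 0.09 and 0.35 in the AeEM libraries and between 0.10 and 0.33 in the AeMM libraries on the log2 scale, too low to test.

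The glutathione peroxidases were abundant and did not pass, 0 of 3. Gpx1 was at 13.51, 13.47, 13.69 and 13.33 in the AeEM libraries and at 13.35, 13.34, 13.21 and 13.38 in the AeMM libraries. AeEM replicates 1 to 3 lay above all AeMM libraries and AeEM replicate 4 lay among them. The fold change of Gpx1 was 0.19 (SE 0.08, limma adjusted p = 0.247). It passed with quantile normalization alone among the 20 alternatives (0.25, limma adjusted p = 0.0337, the others up to 0.844). Gpx4, which reduces lipid peroxides in membranes and guards against ferroptosis, was at 7.56 ± 0.10 in AeEMs and 7.66 ± 0.17 in AeMMs. Gpx3, a secreted form, was at 6.86 ± 0.29 in AeEMs and 7.09 ± 0.28 in AeMMs (fold change -0.23, 95% confidence interval -0.63 to 0.16), with overlapping libraries.

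Of the glutathione transferases, which join glutathione to electrophiles, 5 of 7 were tested and 0 passed. Mgst1, a microsomal transferase that also reduces lipid peroxides, was at 6.79, 6.88, 6.97 and 6.85 in the AeEM libraries and at 7.30, 7.26, 7.03 and 7.47 in the AeMM libraries. The groups did not overlap, and AeMM replicate 3 lay close to the highest AeEM library, which was also replicate 3. The fold change was -0.39 (SE 0.10, limma adjusted p = 0.0712, and 0.342 in the set fit), and Mgst1 passed without AeMM replicate 3 (-0.47, limma adjusted p = 0.0299), with a filter of 5 TPM and with array weights, over a range of 0.00363 to 0.839. Gsto1, an omega-class enzyme that reduces dehydroascorbate and glutathionylated proteins, was at 6.49, 6.33, 6.30 and 6.39 in the AeEM libraries and at 5.98, 6.15, 6.41 and 5.91 in the AeMM libraries. Its highest AeMM library, replicate 3, lay above 3 of the AeEM libraries. The fold change of Gsto1 was 0.27 (SE 0.11, limma adjusted p = 0.252), the highest among the members. Gstp1, the pi-class enzyme, was at 9.28 ± 0.09 in AeEMs and 9.45 ± 0.27 in AeMMs, and Gstm1, a mu-class enzyme, was at 7.83 ± 0.09 in AeEMs and 7.93 ± 0.16 in AeMMs. Gstp1 has the close copies Gstp2 and Gstp3 and Gstm1 belongs to a cluster of similar genes, so reads may have been shared and these values are uncertain. Mgst3 was at 2.33 ± 0.19 in AeEMs and 2.32 ± 0.27 in AeMMs. Gsta4, an alpha-class enzyme that takes up 4-hydroxynonenal, and Mgst2 were at or under 0.84 in AeEMs and at or under 0.71 in AeMMs on the log2 scale.

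Among the peroxiredoxins and sulfiredoxin, Prdx5 was lower in AeEMs and the other 6 did not pass. Prdx5 was at 10.06, 9.98, 10.15 and 9.87 in the AeEM libraries and at 10.31, 10.39, 10.44 and 10.30 in the AeMM libraries. The highest AeEM library and the lowest AeMM library were further apart than the SD of either group (0.12 in AeEMs and 0.07 in AeMMs). Prdx5 fell by 0.35 on the log2 scale (SE 0.07, limma adjusted p = 0.0398, and 0.265 in the set fit), to 0.79 of its AeMM level. Prdx1 was at 10.64, 10.77, 10.61 and 10.54 in the AeEM libraries and at 10.78, 10.67, 10.90 and 10.85 in the AeMM libraries. AeEM replicate 2 lay above AeMM replicate 2 and the rest of the AeEM libraries lay below the AeMM libraries. The fold change of Prdx1 was -0.16 (SE 0.07, limma adjusted p = 0.264). Prdx2, a cytosolic form that is abundant in red blood cells, was at 8.01 ± 0.20 in AeEMs and 7.96 ± 0.12 in AeMMs. Prdx3, the mitochondrial form, was at 5.15 ± 0.11 in AeEMs and 5.06 ± 0.19 in AeMMs. Prdx4, the form of the endoplasmic reticulum, was at 5.24 ± 0.16 in AeEMs and 5.21 ± 0.15 in AeMMs. The groups overlapped in all of these, and also in Prdx6, the 1-cysteine form that uses glutathione, at 6.05 ± 0.06 in AeEMs and 5.94 ± 0.25 in AeMMs. Srxn1, sulfiredoxin, which repairs overoxidised peroxiredoxins, spread most among the 31 tested members, with libraries from 4.68 to 5.59 in AeEMs and from 4.94 to 5.60 in AeMMs (fold change -0.22, SE 0.22). Fold changes of the 7 genes ran from -0.35 to 0.11 with a median of 0.03.

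In the thioredoxin and glutaredoxin group 2 of 5 genes were lower in AeEMs. Txn1 was at 7.19, 7.20, 7.24 and 7.24 in the AeEM libraries and at 7.50, 7.49, 7.47 and 7.42 in the AeMM libraries. These were the tightest values of any member, with an SD of 0.03 in AeEMs and 0.04 in AeMMs. Txn1 fell by 0.25 on the log2 scale (SE 0.05, limma adjusted p = 0.0453, and 0.397 in the set fit), to 0.84 of its AeMM level. Msrb1 was at 4.41, 4.42, 4.66 and 4.47 in the AeEM libraries and at 4.99, 4.98, 4.91 and 4.79 in the AeMM libraries. The nearest libraries were AeEM replicate 3, the highest of its group, and AeMM replicate 4, the lowest of its own. Msrb1 fell by 0.43 on the log2 scale (SE 0.09, limma adjusted p = 0.0435, and 0.314 in the set fit), to 0.74 of its AeMM level. Txnrd1, the cytosolic reductase that recharges thioredoxin, was at 3.88 ± 0.14 in AeEMs and 3.89 ± 0.11 in AeMMs. Txnip, which binds and inhibits thioredoxin, was at 8.65 ± 0.11 in AeEMs and 8.71 ± 0.13 in AeMMs. Glrx, glutaredoxin, which removes glutathione from proteins, was at 5.79 ± 0.06 in AeEMs and 5.72 ± 0.06 in AeMMs. The reductase and the inhibitor of thioredoxin thus did not pass the test in a comparison in which Txn1 did, and whether the genes differ from each other in their change was not tested.

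Of the superoxide dismutases and catalase, Sod1 was lower in AeEMs. It was at 6.82, 6.70, 6.64 and 6.74 in the AeEM libraries and at 7.02, 7.12, 7.10 and 7.13 in the AeMM libraries. In both groups replicate 1 lay nearest to the other group. The adjustment evened the mean of that pair with those of the other sets, so these positions are not independent. Sod1 fell by 0.36 on the log2 scale (SE 0.06, limma adjusted p = 0.0225, and 0.259 in the set fit), to 0.78 of its AeMM level. Sod2, the manganese enzyme of mitochondria, was at 5.07 ± 0.16 in AeEMs and 5.14 ± 0.11 in AeMMs (fold change -0.07, 95% confidence interval -0.30 to 0.16). Cat, catalase, was at 5.55 ± 0.07 in AeEMs and 5.58 ± 0.06 in AeMMs (fold change -0.03, 95% confidence interval -0.19 to 0.13). In Sod2 and Cat the libraries of the groups overlapped.

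**Figure D2:**
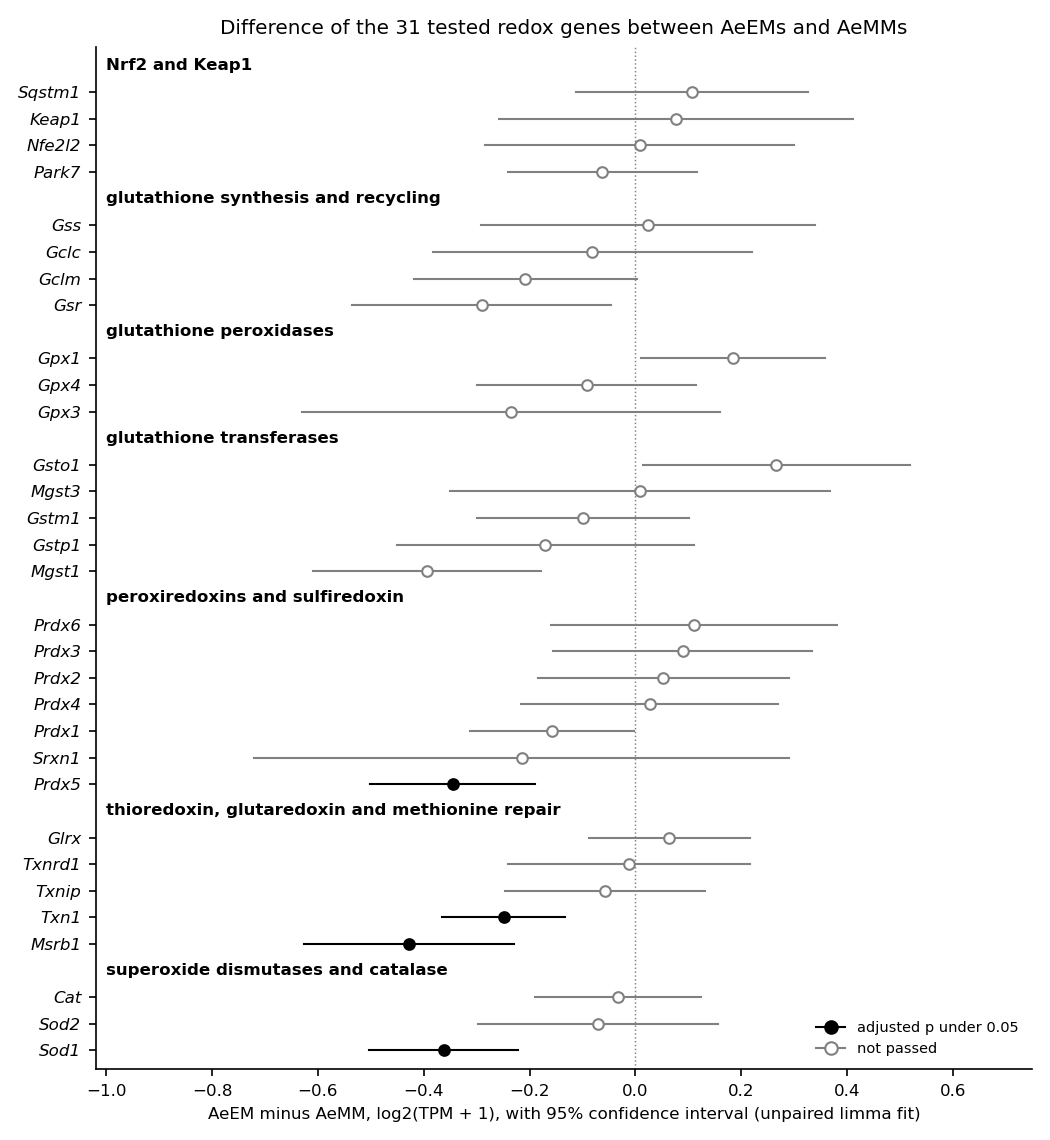
Fold change of the 31 tested redox genes, AeEM minus AeMM in log2(TPM + 1), with 95% confidence intervals from the unpaired limma fit, grouped by role. The filled points, Prdx5 (-0.35), Txn1 (-0.25), Msrb1 (-0.43) and Sod1 (-0.36), passed an adjusted p of 0.05, and the open points did not.

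**Figure D3:**
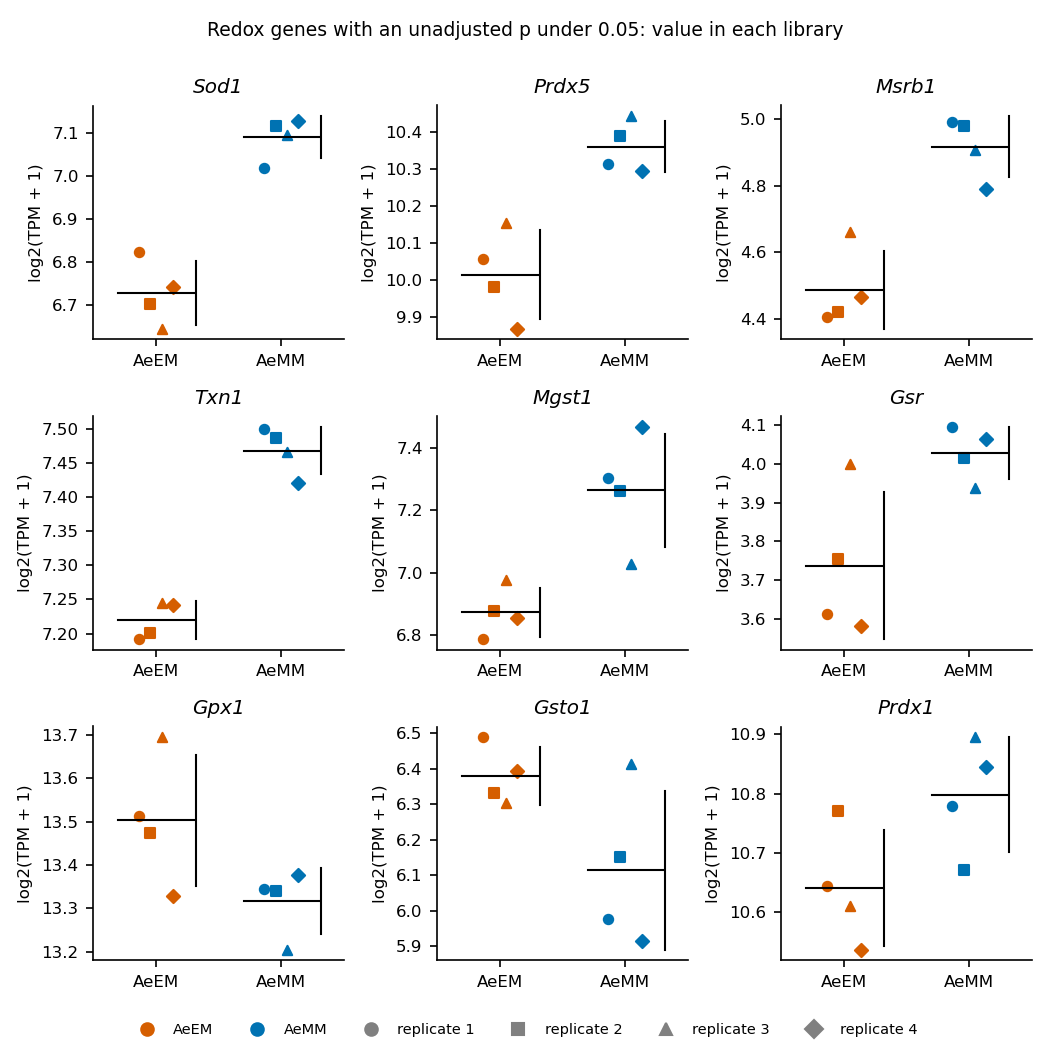
Values in log2(TPM + 1) of the 9 redox genes with an unadjusted limma p under 0.05 in the unpaired fit, with a point per library, the shape giving the replicate number, a horizontal line at the group mean and a vertical bar of 1 SD on each side (n = 4). In Sod1, Prdx5, Msrb1, Txn1 and Mgst1 all AeEM libraries lie below all AeMM libraries, and in Gsr, Gpx1, Gsto1 and Prdx1 the groups overlap.

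The calls for these 4 genes were close to the threshold, and most were lost when a library was left out. The count of 4 became 3 without AeEM replicate 3, 2 without AeMM replicate 3 (Sod1 and Mgst1), 1 without AeEM replicate 4, and 0 when AeEM replicate 1 or 2 was left out, or any of AeMM replicates 1, 2 and 4. Sod1 passed without AeEM replicate 3 or 4 and without AeMM replicate 3, Prdx5 and Msrb1 passed without AeEM replicate 3, and Txn1 was lost without each of the 8 in turn. Over the 20 alternatives tried, the limma adjusted p ran from 0.00626 to 0.705 for Sod1, from 0.00363 to 0.770 for Prdx5, from 0.00163 to 0.842 for Msrb1 and from 0.00297 to 0.842 for Txn1. The fold changes held their sign throughout, from -0.42 to -0.32 for Sod1, from -0.39 to -0.30 for Prdx5, from -0.53 to -0.29 for Msrb1 and from -0.28 to -0.20 for Txn1.

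Within each of the 3 sets of libraries the 4 genes were lower in AeEMs, which had to follow from groups that did not overlap. Sod1 differed by -0.20 between the libraries numbered 1, by -0.42 between those numbered 2 and by -0.42 between the means of those numbered 3 and 4. That of Prdx5 was -0.26, -0.41 and -0.36 in the same order, and that of Msrb1 was -0.58, -0.56 and -0.29. Txn1 had differences of -0.31, -0.29 and -0.20. Of the 31 genes tested, 7 were below in AeEMs in all 3 sets, namely these 4 with Mgst1, Gsr and Gstp1. In comparison, 19.2% of all genes tested were below in all 3. In Mgst1 too, the lack of overlap had fixed the sign. Gpx1, Gsto1, Prdx6 and Sqstm1 among the 31 were above in AeEMs in all 3 sets, and 20 were mixed. The share of all genes tested that were above in all 3 was not counted. Prdx1 was mixed, at -0.14, 0.10 and -0.30 in the same order.

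**Figure D4:**
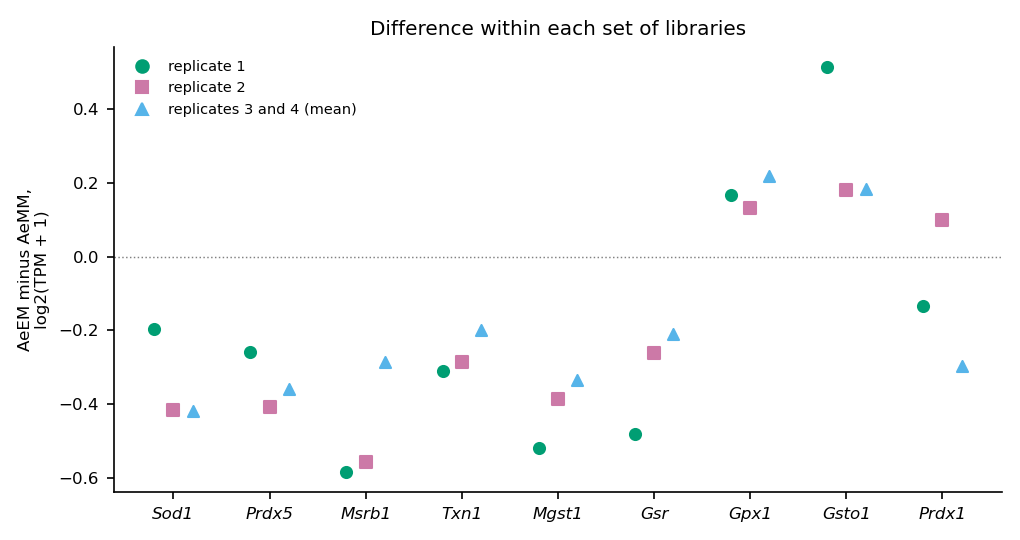
Difference between AeEMs and AeMMs in log2(TPM + 1) within each of the 3 sets of libraries, for the 9 redox genes with an unadjusted limma p under 0.05. Sod1, Prdx5, Msrb1, Txn1, Mgst1 and Gsr lie below 0 in all 3 sets, Gpx1 and Gsto1 lie above 0 in all 3, and Prdx1 is at 0.10 in replicate 2 and below 0 in the others. For Sod1, Prdx5, Msrb1, Txn1 and Mgst1 the sign had to follow, since their groups did not overlap.

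The promoters of the 4 genes that were lower are shown because these genes moved in the same direction. Each line gives the 150 bases before the RefSeq start of GRCm38.p6, 5′ to 3′ on the strand of the gene, and capitals mark 4 motifs on either strand. These are the core of the antioxidant response element given above, the GC box, which was searched as GGGCGG, the TATA box, which was searched as the letters TATAAA in a row, and the box that is named by its letters CCAAT. The stretches are chr16:90220612-90220761 on the + strand for Sod1, chr19:6910107-6910256 on the - strand for Prdx5, chr17:24736443-24736592 on the + strand for Msrb1 and chr4:57956412-57956561 on the - strand for Txn1.
Sod1: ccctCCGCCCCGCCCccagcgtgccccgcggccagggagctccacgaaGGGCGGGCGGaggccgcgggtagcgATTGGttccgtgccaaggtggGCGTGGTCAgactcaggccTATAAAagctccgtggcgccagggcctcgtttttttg
Prdx5: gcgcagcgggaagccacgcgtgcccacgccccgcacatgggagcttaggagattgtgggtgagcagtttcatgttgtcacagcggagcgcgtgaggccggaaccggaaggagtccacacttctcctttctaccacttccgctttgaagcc
Msrb1: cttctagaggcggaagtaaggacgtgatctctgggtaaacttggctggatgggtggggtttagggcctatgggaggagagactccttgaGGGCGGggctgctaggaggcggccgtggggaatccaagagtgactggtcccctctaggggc
Txn1: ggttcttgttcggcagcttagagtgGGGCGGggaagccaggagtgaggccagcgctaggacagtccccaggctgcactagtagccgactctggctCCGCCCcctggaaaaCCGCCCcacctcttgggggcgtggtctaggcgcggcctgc
Sod1 holds the core of the antioxidant response element, a TATA box at -37, a CCAAT box and overlapping GC boxes. Txn1 and Msrb1 hold GC boxes in the stretches shown. Outside them, and besides further GC boxes, Txn1 has the letters TATAAA at -160. Msrb1 has these letters on the opposite strand at -241, and CCAAT boxes at -247, 26 and 33. The single GC box of Prdx5 lies at -242, outside the stretch shown, which holds none of the 4 motifs. Over 250 bases before to 50 after the start, 27 of the 31 redox genes with a promoter (87.1%) held a GC box. Of all 27025 genes with a promoter, tested here or not, 38.2% held it. The letters TATAAA, at any place in that window and on either strand, were in 9 of the 31 (29.0%, beside 15.7%). A CCAAT box was in 13 (41.9%, beside 41.1%) and an AP-1 site in 5 (16.1%, beside 8.97%). Shares among the genes tested here were not counted. Over that window all 4 promoters hold the GC box, which most redox genes have. Sod1, Msrb1 and Txn1 but not Prdx5 hold the letters TATAAA, at unlike places (-37, -241 on the opposite strand, and -160). In GENCODE M21 on mm10, Sod1 lies on chromosome 16 from 90220754 to 90226329, Prdx5 on chromosome 19 from 6906697 to 6910106, Msrb1 on chromosome 17 from 24736642 to 24742778 and Txn1 on chromosome 4 from 57943373 to 57956411, all as protein-coding genes, and the values are for whole genes.

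Other genes of the same pathways were taken from 7 lists of 159 genes, of which 151 were in the table and 116 were tested. In the unpaired fit 2 were higher in AeEMs and 2 lower, against 1.25% and 1.16% of all genes tested, and in the set fit 0 passed in either direction. The median fold change of the 116 was 0.02. Of the 116, 18 had an unadjusted limma p under 0.05 in the unpaired fit, against 1587 of all 8801 genes tested. In the set fit it was 10 of the 116, against 848 of the 8801.

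Ltc4s, leukotriene C4 synthase, a membrane enzyme that joins glutathione to leukotriene A4, was at 7.28, 7.14, 7.24 and 7.03 in the AeEM libraries and at 7.66, 7.73, 7.63 and 7.78 in the AeMM libraries. The groups lay well apart, and Ltc4s fell by 0.53 on the log2 scale (SE 0.07, limma adjusted p = 0.0082, and 0.0998 in the set fit). It passed without each of the 8 libraries in turn. Bach1, a repressor that competes with Nrf2 for its elements and is released by haem, was at 3.95, 3.99, 4.11 and 3.83 in the AeEM libraries and at 4.43, 4.38, 4.36 and 4.44 in the AeMM libraries. It fell by 0.43 on the log2 scale (SE 0.08, limma adjusted p = 0.0363, and 0.314 in the set fit), with no overlap, and of the 8 libraries only AeEM replicate 3 could be left out without the loss of the call.

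Anpep, the aminopeptidase CD13, which cleaves cysteinylglycine and other peptides at the cell surface, was at 2.48, 2.42, 2.32 and 2.45 in the AeEM libraries and at 1.75, 1.83, 2.09 and 1.67 in the AeMM libraries. It rose by 0.58 on the log2 scale (SE 0.12, limma adjusted p = 0.0450, and 0.318 in the set fit), again with no overlap between the groups, and kept the call without AeMM replicate 3 only. Arrdc4, an arrestin-domain gene related to Txnip that does not bind thioredoxin, was at 4.39, 4.34, 4.495 and 4.25 in the AeEM libraries and at 3.80, 3.86, 3.97 and 3.73 in the AeMM libraries. It rose by 0.53 (SE 0.09, limma adjusted p = 0.0222, and 0.251 in the set fit), also without overlap, and kept the call when AeEM replicate 3, AeEM replicate 4 or AeMM replicate 3 was left out. Txnip itself did not pass, with a fold change of -0.06.

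By list, glutathione synthesis, recycling and hydrolysis had 1 of 17 tested genes higher (Anpep) and 0 lower, with a median of 0.07. Other glutathione transferases and peroxidases had 1 of 11 lower (Ltc4s) and 0 higher, with a median of -0.14, and other thioredoxin, glutaredoxin and methionine sulfoxide genes had 1 of 19 higher (Arrdc4) and 0 lower, with a median of -0.01. Nrf2 partners and regulators had 1 of 15 lower (Bach1) and 0 higher, with a median of -0.02. In the list of superoxide dismutase partners and selenoproteins 0 of 17 passed (median 0.15), in that of other Nrf2 targets, haem and ferritin 0 of 20 (median 0.07), and in that of lipid peroxidation and ferroptosis 0 of 17 (median 0.01). Hmox1, the haem oxygenase that Nrf2 induces and Bach1 represses, was abundant in both groups, at 11.71 ± 0.15 in AeEMs and 11.56 ± 0.11 in AeMMs, and did not pass (fold change 0.15, limma adjusted p = 0.409). The ferritin chains Ftl1 and Fth1, which are also repressed by Bach1, had fold changes of 0.08 and 0.05 (limma adjusted p = 0.468 and 0.758).

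**Figure D5:**
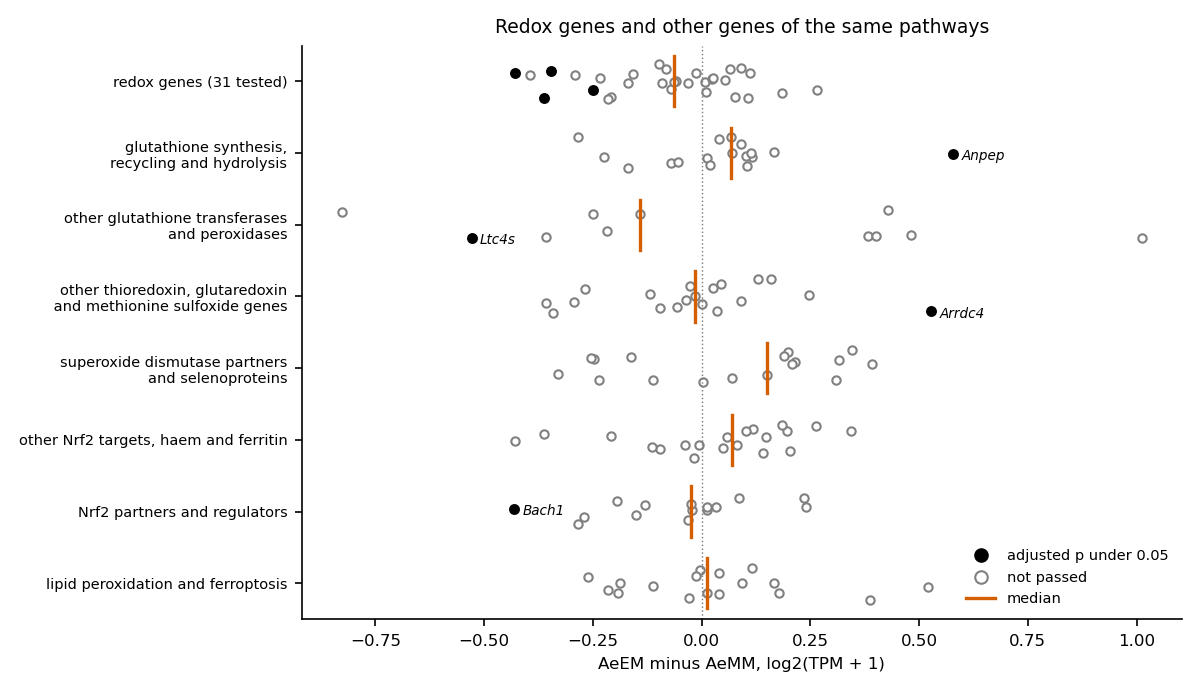
Fold change, AeEM minus AeMM in log2(TPM + 1), of the 31 tested redox genes and of the 116 tested genes in 7 lists of the same pathways, with a point per gene and an orange line at the median of each list. Of the 116, Anpep (0.58) and Arrdc4 (0.53) were higher and Ltc4s (-0.53) and Bach1 (-0.43) lower at an adjusted p of 0.05.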

How the data were processed

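The authors sequenced 8 Smart-seq2 libraries, 4 of AeEMs and 4 of AeMMs. Read cleaning used fastp, alignment to mm10 used STAR 2.7.2a, and Subread featureCounts quantified the genes. The deposited values, log2(TPM + 1), were adjusted between 3 sets of libraries by a step that, like the conversion to TPM and the annotation, is not given in the sources used here. The study's statistics section lists tests, limma among them, without tying any to these libraries. Some values lie under 0 after it. They were used as deposited and back-transformed only for filters and alternatives. The 8 libraries came from 4 mice. If the 4 biological replicates of a group were separate mice, each mouse gave a library to both groups, which the unpaired fit ignores. Equal numbers are not stated to share a mouse. The unpaired p-values measure only the spread that the adjustment left, not the full spread between libraries or mice, and may be too small. In deviations from the group means over the 8801 genes, AeEM and AeMM libraries correlated at -0.992 for number 1 and -0.999 for number 2. These pairs were thus near mirror images and not independent. Grouping followed the titles. AeEM minus AeMM was fitted with limma 3.58.1 under R 4.3.3 (mean-variance trend, Benjamini-Hochberg adjustment over the 8801 genes that averaged 1 TPM or more), unpaired, and again with a term for the 3 sets (the set fit). The adjustment makes a check for pairing void. All 35 members are named. Genes of 7 pathway lists are named where they passed, up to 4 in each direction, and others that illustrate a list (Hmox1, Ftl1 and Fth1) were chosen after their values were seen. The members and lists were chosen with earlier results of these data known. The alternatives were a pseudocount of 0.1 or 5, no filter or one of 5 TPM, other scalings, no trend, array weights, other covariates and fits without some libraries. The scripts were tested on simulated data. Promoters are from RefSeq (GRCm38.p6) and positions from GENCODE M21. With no read counts used, the depth per library is unknown, and 4 libraries per group set the precision.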

Additional observations from a re-analysis of the deposited data

Results flagged for a closer look

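Prdx4, the peroxiredoxin of the endoplasmic reticulum, was at 5.47 in AeEM replicate 3, above the other AeEM libraries, of which the nearest was at 5.19, and above all 4 AeMM libraries. The gap to the nearest library took up 0.851 of the range of the AeEMs, over Dixon's critical value for 4 libraries. It was the only such value among 70 groups of 4 checked (31 tested members and the 4 pathway genes past the threshold, in both cell groups), and chance alone marks about 1 group in 20.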

How the results depend on the processing

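The 4 lower members became 2 with no filter, 2 with quantile normalization (with 1 higher, Gpx1), 0 with no trend, 6 with array weights (with 1 higher, Gsto1), and 0 in the set fit, with the replicate block, which takes equal numbers as pairs, and with replicates 3 and 4 only. Leaving out each library in turn gave 0 to 3. For genes called over all 8801, the 110 higher and 102 lower became 540 and 836 with array weights, 9 and 5 in the set fit, 3 and 2 with the replicate block, 0 and 0 with replicates 3 and 4 only, and 40 to 106 and 31 to 113 with a library left out. The lower count was 58 with no trend. For the pathway lists, the 2 higher and 2 lower became 1 higher with no filter or a 5 TPM filter, 5 lower with quantile normalization, 1 lower with no trend, 5 and 13 with array weights, and 0 and 0 in the set fit, with the replicate block and with replicates 3 and 4 only. They were 0 to 2 and 1 to 3 with a library left out. The median of the members stayed between -0.093 and -0.029.

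Members near 0 changed sign without passing. With array weights the log2 fold change of Nfe2l2 was -0.128, of Keap1 -0.119, of Gss -0.128, of Gstm1 0.021, of Mgst3 -0.165, of Prdx2 -0.052, of Prdx4 -0.104, of Txnrd1 0.018 and of Glrx -0.0028. Mgst3 was at -0.0040 with quantile normalization, Txnrd1 at 0.0079 with size factors, Nfe2l2 at -0.0025 without mitochondrial and ribosomal genes, and Txnip at 0.077 and Cat at 0.063 in replicates 3 and 4 only. With a library left out, Gss ran from -0.058 to 0.0998, Mgst3 from -0.119 to 0.084, Nfe2l2 from -0.094 to 0.062, Prdx2 from -0.035 to 0.112, Prdx4 from -0.052 to 0.061 and Txnrd1 from -0.057 to 0.039. The causes were not tested.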
